A study of Homo sapiens with 6 samples.

Results

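The genes described here encode deubiquitinating enzymes, the proteases that remove ubiquitin from proteins or take ubiquitin chains apart. They were taken from the table of gene counts as protein-coding rows whose symbols name a ubiquitin-specific protease (USP, except USP18 and USP9Y), an OTU-domain enzyme of the OTUD or OTUB kind or a ubiquitin C-terminal hydrolase (UCHL), together with BAP1, CYLD, STAMBP and BRCC3. This gave 64 of the 30651 genes listed, of which 17101 are protein-coding. Enough reads for a test were counted for 57 of them, out of 15423 genes tested. The cells are PC-3, an established human prostate cancer line that was grown from a metastasis in bone. Total RNA was sequenced in 3 libraries of a group named after MTA1, whose data columns carry the name shMTA1, and in 3 control libraries (Ctrl), whose columns carry the name NC. Both groups are PC-3 cells grown in the same serum-containing medium. The labels name lentivirus and the screening of stable clones for the study as a whole, but not the hairpin, the number of clones or the vector of the controls. The p-values set the difference between the groups against the spread of libraries within a group only. Since separate cultures are not named, that spread may be technical.

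Ubiquitin is attached to proteins by a chain of E1, E2 and E3 enzymes, and deubiquitinating enzymes reverse the attachment. By trimming chains at the proteasome, on endosomes, on histones or on signalling proteins they decide whether a marked protein is destroyed, recycled or switched off. Most are cysteine proteases, while STAMBP and BRCC3 are zinc metalloproteases of the JAMM kind. Many members form paralog pairs with overlapping partners, and several work only with a cofactor, such as USP1, USP12 and USP46 with the WD40 protein WDR48. In prostate cancer cells, members of the family are known as regulators of p53 and of DNA repair.

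The libraries held 29909172 to 30938820 counts in the shMTA1 group and 31726013 to 33849262 in Ctrl. MTA1 itself, a subunit of the NuRD chromatin complex and the gene the group is named after, had 528, 572 and 519 counts in shMTA1 libraries, against 1185, 1331 and 1352 in Ctrl libraries, which is 43.4% of the control level in CPM. Levels below are CPM (counts scaled to the TMM-adjusted size of the library) unless FPKM is named, in the order of replicates 1, 2 and 3, means are ± SD over n = 3 libraries each, and log2 fold changes are of shMTA1 over Ctrl ± SE. Of 7 epithelial and PC-3 markers 4 rose (EPCAM, VIM, LAMB3 and KRT19), 2 fell (KRT8 and HOXB13) and KRT18 did not pass, and their summed level was 4649 ± 138 CPM in shMTA1 libraries and 4674 ± 113 CPM in Ctrl. EPCAM stood at 25.4 ± 1.93 CPM in shMTA1 and 17.4 ± 2.00 CPM in Ctrl libraries, KRT8 at 1541 ± 56.9 and 1886 ± 43.9 CPM, and HOXB13, a prostate transcription factor, at only 0.623 ± 0.136 and 1.58 ± 0.229 CPM. The androgen-driven KLK3 and TMPRSS2 stood at most at 0.0656 CPM in any library. The summed level of 7 fibroblast markers ran from 114 to 115 CPM in shMTA1 libraries and from 78.6 to 87.9 CPM in Ctrl, with THY1 carrying most of it at 77.0 ± 0.846 and 32.1 ± 2.39 CPM and COL1A1 at 16.4 ± 0.470 and 31.6 ± 1.46 CPM. The 4 leukocyte markers that were listed summed to 0.451 to 0.787 CPM in shMTA1 and 0.851 to 1.04 CPM in Ctrl libraries, and the 3 packaging-line markers to 0.189 to 0.451 and 0.129 to 0.365 CPM. CD3E was not listed and PAX2 and NEFM had no count in any shMTA1 library. The part of these markers in the results on the deubiquitinases was not tested.

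Fewer deubiquitinase genes passed the test than of all genes, and their changes were small. With 0.05 as the threshold on the adjusted p of edgeR's quasi-likelihood test, 14 of the 57 members rose and 9 fell, which is 40.4% of them, against 58.1% of all 15423 tested genes (29.5% higher and 28.6% lower). The other 34 did not pass, which does not show that their levels were equal. The median absolute log2 fold change was 0.16 over the members and 0.29 over all tested genes, with a median SE of 0.075 over the members and 0.084 over all genes. A change of at least 1.5-fold was called for 6 members (10.5%), against 19.6% of all genes, and a change of at least 2-fold for none of the members, against 6.19% of all genes. The groups did not overlap for 30 members (52.6%), against 62.7% of all genes. Summed over the 64 members, the family took 1346, 1341 and 1349 CPM in shMTA1 libraries, against 1335, 1323 and 1326 CPM in Ctrl libraries, so that the total in shMTA1 was 101% of that in Ctrl. In bulk RNA a lower level can come from less RNA per cell or from fewer cells with the RNA, and these cannot be told apart. The split between higher and lower calls depended on the scaling of the libraries, with 22 higher and 6 lower when libraries were scaled by their total counts alone.

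**Figure D1:**
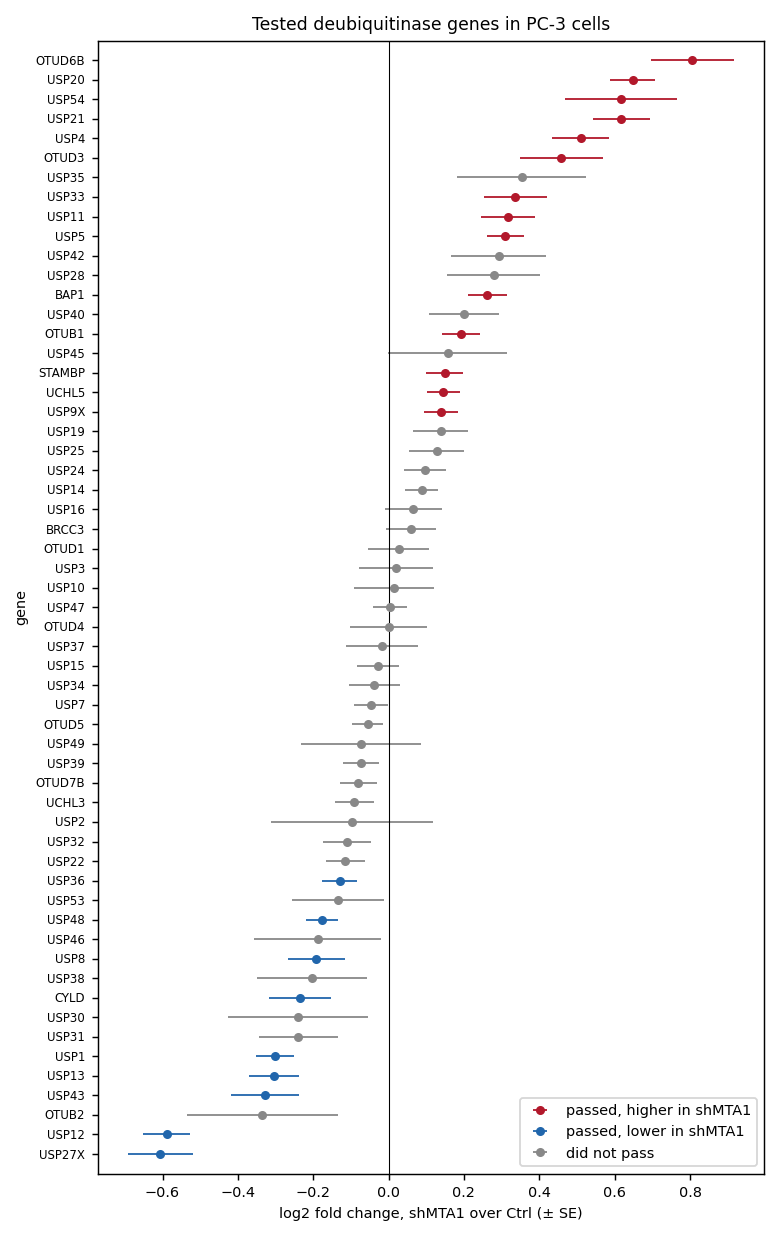
Log2 fold change (x axis, shMTA1 over Ctrl, bars are ± SE) of the 57 tested deubiquitinase genes (y axis, ordered by fold change). The values run from -0.61 for USP27X to 0.81 for OTUD6B, with 14 genes passing as higher, 9 as lower and 34 in grey that did not pass.

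**Figure D2:**
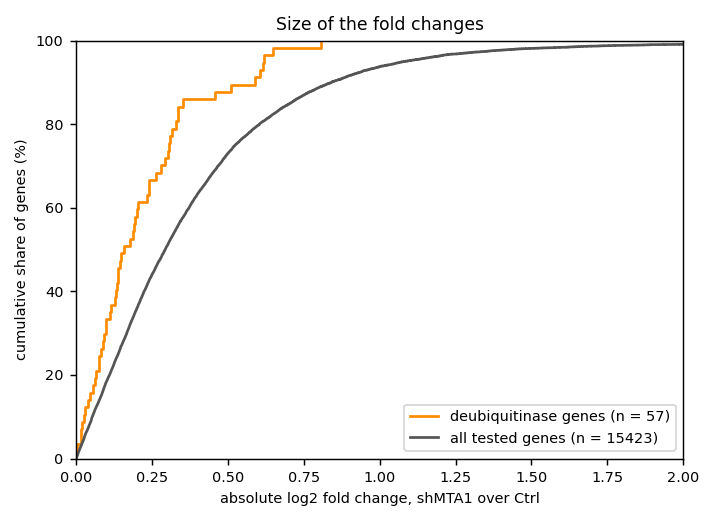
Cumulative share of genes (y axis, percent) up to a given absolute log2 fold change (x axis, drawn up to 2) for the 57 deubiquitinase genes and all 15423 tested genes. The curve of the deubiquitinases lies above that of all genes over most of the axis, with medians of 0.16 and 0.29.

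The largest rises were those of OTUD6B, USP20, USP54 and USP21. OTUD6B (ENSG00000155100.11, chromosome 8), an OTU-domain enzyme linked to protein synthesis, had 5.84, 6.94 and 6.03 CPM in shMTA1 libraries, against 3.85, 3.27 and 3.65 CPM in Ctrl libraries. Each shMTA1 library was above every Ctrl library, at a log2 fold change of 0.81 ± 0.11 (adjusted p = 3.2e-06). Its antisense neighbour OTUD6B-AS1 was the more abundant of the pair and went the other way, with 43.6 ± 0.387 CPM in shMTA1 and 54.2 ± 2.83 CPM in Ctrl libraries (-0.31 ± 0.049, adjusted p = 1.6e-05). The kit keeps the strand, but no source used here gives the strand setting of the counting, so reads of these neighbours may not be fully told apart. USP20 (ENSG00000136878.14, chromosome 9), which removes ubiquitin from internalised beta-adrenergic receptors and from HIF1A, had 22.9, 22.3 and 24.7 CPM in shMTA1 libraries, against 14.4, 14.7 and 15.4 CPM in Ctrl libraries. The groups stood well apart, at 0.65 ± 0.060 (adjusted p = 1.6e-08). USP21 (ENSG00000143258.16, chromosome 1), which acts on histone H2A and on signalling proteins, had 12.2, 11.7 and 12.9 CPM in shMTA1 libraries, against 8.25, 8.18 and 7.54 CPM in Ctrl libraries. All 3 shMTA1 libraries were higher (0.62 ± 0.076, adjusted p = 7.6e-07). USP54 (ENSG00000166348.19, chromosome 10), long annotated as inactive, was scarce, with 2.85, 2.65 and 2.71 CPM in shMTA1 libraries, against 1.81, 1.68 and 1.85 CPM in Ctrl libraries. It too was higher in each shMTA1 library (0.62 ± 0.15, adjusted p = 0.0014).

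The largest falls were those of USP27X and USP12. USP27X (ENSG00000273820.2, X chromosome), a relative of USP22 that acts outside the SAGA complex, had 6.07, 5.30 and 5.77 CPM in shMTA1 libraries, against 8.58, 8.73 and 8.75 CPM in Ctrl libraries. The highest shMTA1 value lay well under the lowest Ctrl value (-0.61 ± 0.086, adjusted p = 4.9e-06). USP12 (ENSG00000152484.14, chromosome 13), which works with WDR48 and WDR20, had 11.9, 12.6 and 13.1 CPM in shMTA1 libraries, against 18.4, 18.7 and 19.4 CPM in Ctrl libraries. The groups did not overlap (-0.59 ± 0.062, adjusted p = 1.0e-07). These 6 genes are the members that differed by at least 1.5-fold.

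**Figure D3:**
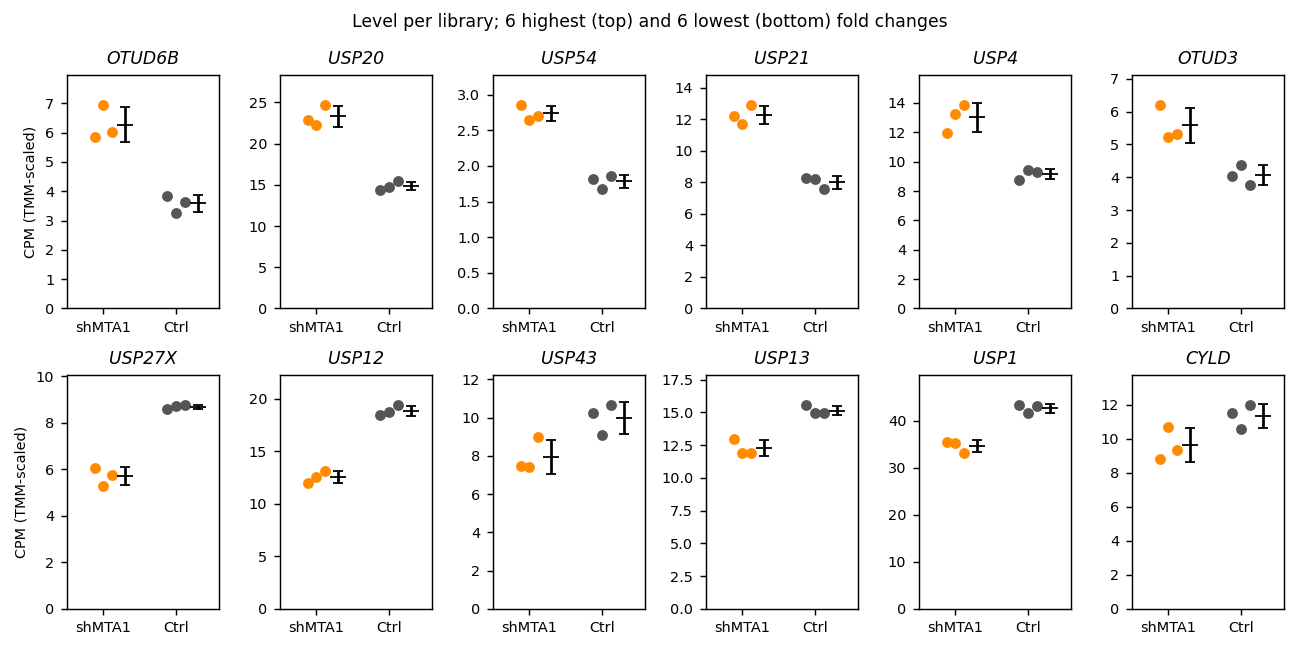
Level in CPM (y axes from 0, one scale per gene) in each shMTA1 library and each Ctrl library for the 6 called members with the highest and the 6 with the lowest log2 fold change; black marks are the mean ± SD. The groups do not overlap for 11 of the 12 genes, and for CYLD the shMTA1 library at 10.7 CPM lies above the Ctrl library at 10.6 CPM.

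The promoter windows of 4 of these genes are shown because the genes gave the clearest changes in each direction. The sequences are from RefSeq on GRCh38.p14, 5′ to 3′ on the gene's strand, 250 bases before to 50 after the annotated start. A window was found for 47 of the 57 tested members. Capitals mark matches, on either strand, to the GC box (GGGCGG), the CCAAT box, the palindromic E-box (CACGTG), an ETS site (CCGGAAG), the CRE (TGACGTCA) or the TATA box (TATAAA). None of these motifs contains another. The windows are chr9:129835208-129835507 (plus strand), chr1:161159250-161159549 (plus strand), chrX:49879234-49879533 (plus strand) and chr13:27171762-27172061 (minus strand).
USP20: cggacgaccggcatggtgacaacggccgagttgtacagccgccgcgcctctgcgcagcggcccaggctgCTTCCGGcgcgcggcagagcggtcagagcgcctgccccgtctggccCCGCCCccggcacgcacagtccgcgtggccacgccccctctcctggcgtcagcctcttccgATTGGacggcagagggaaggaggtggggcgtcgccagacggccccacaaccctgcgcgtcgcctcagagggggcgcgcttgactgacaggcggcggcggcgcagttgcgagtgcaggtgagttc
USP21: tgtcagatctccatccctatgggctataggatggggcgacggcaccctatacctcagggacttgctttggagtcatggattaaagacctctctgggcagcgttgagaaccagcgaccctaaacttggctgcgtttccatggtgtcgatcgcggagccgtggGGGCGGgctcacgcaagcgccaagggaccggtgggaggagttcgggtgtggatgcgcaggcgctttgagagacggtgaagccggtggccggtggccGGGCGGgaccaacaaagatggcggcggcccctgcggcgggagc
USP27X: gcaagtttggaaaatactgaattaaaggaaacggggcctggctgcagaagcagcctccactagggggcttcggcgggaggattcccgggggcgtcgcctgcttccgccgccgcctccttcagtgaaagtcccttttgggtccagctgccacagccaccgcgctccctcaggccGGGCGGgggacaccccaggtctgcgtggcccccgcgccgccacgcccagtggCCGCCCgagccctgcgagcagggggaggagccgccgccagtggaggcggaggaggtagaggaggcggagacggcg
USP12: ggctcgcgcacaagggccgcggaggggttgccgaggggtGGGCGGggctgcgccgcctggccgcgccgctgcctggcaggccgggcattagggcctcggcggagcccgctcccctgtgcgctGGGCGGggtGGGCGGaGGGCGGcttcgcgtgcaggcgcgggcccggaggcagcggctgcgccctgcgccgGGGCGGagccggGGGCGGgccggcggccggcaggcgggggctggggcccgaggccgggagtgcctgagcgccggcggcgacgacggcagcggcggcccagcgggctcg
The window of USP20 held 1 GC box, 1 CCAAT box and 1 ETS match, those of USP21 and USP27X 2 GC boxes each and that of USP12 6 GC boxes. Their GC content was 73.3% for USP20, 63.7% for USP21, 70.0% for USP27X and 84.3% for USP12. A GC box was found for 42 of the 47 members (89.4%), against 77.6% of 9948 tested coding genes with a window and 48.3% of all 27305 genes with a window. An ETS match was found for 29.8% of the members (22.6% of the coding genes, 12.2% of all genes) and CCAAT for 36.2% (43.4% and 39.7%). The E-box was held by 10.6% (12.9% and 8.77%), the TATA box by 8.51% (8.504% and 14.0%) and the CRE by 2.13% (3.89% and 2.25%). Median GC content was 62.7% over the 10 members that rose and had a window, 70.0% over the 7 that fell, 69.4% over the 30 that did not pass and 64.8% over the tested coding genes. A match in a window is a description of its letters only.

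Deubiquitinases of histones and chromatin went both ways. Of 10 tested members 2 rose, 2 fell and 6 did not pass, with a median log2 fold change of -0.01, and their summed level was 250 ± 1.56 CPM in shMTA1 and 253 ± 2.76 CPM in Ctrl libraries. Beside this count and those by role below, 24.6% of all tested members were called higher and 15.8% lower. Of all tested genes 29.5% were called higher and 28.6% lower. BAP1, the tumour suppressor that removes ubiquitin from histone H2A in the PR-DUB complex, had 31.0, 32.1 and 33.8 CPM in shMTA1 libraries, against 27.2, 26.6 and 27.0 CPM in Ctrl libraries. The groups did not overlap (0.26 ± 0.052, adjusted p = 0.00022). Its cofactors split, with ASXL1 higher (0.23 ± 0.048, adjusted p = 0.00042) and ASXL2 lower (-0.33 ± 0.073, adjusted p = 0.00062). USP36, a nucleolar enzyme, had 41.9, 43.1 and 41.0 CPM in shMTA1 libraries, against 45.7, 45.0 and 47.2 CPM in Ctrl libraries. Its fall of 0.13 on the log2 scale (-0.13 ± 0.047, adjusted p = 0.024) was among the smallest called. The call ended without shMTA1 replicate 1 (adjusted p = 0.056) or 3 (0.070), without Ctrl replicate 3 (0.084), with library size only (0.27), without a filter (0.076) and on the FPKM scales (0.26 and 0.27). USP22, the deubiquitinase of the SAGA coactivator complex, did not pass (-0.11 ± 0.052, adjusted p = 0.064), nor did USP7, which stabilises MDM2 and p53 (-0.05 ± 0.045), the H2A enzymes USP16 (0.07 ± 0.075) and USP3 (0.02 ± 0.097), USP42 (0.29 ± 0.13) or USP49 (-0.07 ± 0.16). Among the cofactors of USP22, ENY2 fell to 326 ± 31.4 CPM in shMTA1, against 470 ± 34.5 CPM in Ctrl (-0.53 ± 0.059, adjusted p = 2.2e-07), and ATXN7L3 rose (0.29 ± 0.083, adjusted p = 0.0057). USP44 and USP51 had no count in any shMTA1 library, against 1, 0 and 1 and 1, 0 and 2 counts in Ctrl libraries, and were not tested. A count of 0 allows up to 3 counts, or 0.0946 to 0.0984 CPM in a shMTA1 library, an allowance for counting error only.

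Among the enzymes of DNA repair and replication the fall of USP1 stood beside lower PCNA and FANCI and higher FANCD2. Of 10 tested members 2 rose, 2 fell and 6 did not pass (median 0.08). USP1, which removes ubiquitin from PCNA and from the FANCD2 and FANCI pair, had 35.4, 35.4 and 33.1 CPM in shMTA1 libraries, against 43.3, 41.6 and 43.1 CPM in Ctrl libraries. All 3 shMTA1 values were lower (-0.30 ± 0.050, adjusted p = 3.1e-05). Of its substrates, PCNA fell (-0.73 ± 0.042, adjusted p = 1.3e-11), FANCI fell (-0.72 ± 0.039, adjusted p = 5.1e-12) and FANCD2 rose (0.37 ± 0.046, adjusted p = 8.5e-07). USP48, known for acting on histone H2A marked by BRCA1, had 98.6, 95.2 and 95.8 CPM in shMTA1 libraries, against 113, 108 and 106 CPM in Ctrl libraries (-0.18 ± 0.042, adjusted p = 0.0013). It was the most abundant member in CPM that fell. USP11, which stabilises BRCA2, had 30.2, 34.1 and 34.4 CPM in shMTA1 libraries, against 23.2, 29.5 and 26.4 CPM in Ctrl libraries. The lowest shMTA1 value was close to the highest Ctrl value, and the gene passed as higher (0.32 ± 0.071, adjusted p = 0.00081). OTUB1, which also inhibits E2 enzymes by binding them, had 28.0, 28.4 and 28.3 CPM in shMTA1 libraries, against 24.9, 24.9 and 24.3 CPM in Ctrl libraries (0.19 ± 0.050, adjusted p = 0.0027). The members that did not pass were USP24 (0.10 ± 0.055), USP28 (0.28 ± 0.12), USP37 (-0.02 ± 0.096), USP45 (0.16 ± 0.16), USP47 (0.003 ± 0.045) and BRCC3, the K63-specific subunit of the BRCA1-A and BRISC complexes (0.06 ± 0.066).

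Enzymes of the proteasome and of free ubiquitin chains were higher in sum, at 254 ± 2.70 CPM in shMTA1 and 234 ± 5.32 CPM in Ctrl libraries. Of 5 tested, 2 rose, 1 fell and 2 did not pass. USP5, or isopeptidase T, which takes unanchored ubiquitin chains apart, had 67.0, 62.4 and 65.1 CPM in shMTA1 libraries, against 52.2, 49.7 and 55.0 CPM in Ctrl libraries. Each shMTA1 library was higher (0.31 ± 0.049, adjusted p = 1.8e-05). Its paralog USP13 had 13.0, 11.9 and 11.9 CPM in shMTA1 libraries, against 15.5, 14.9 and 15.0 CPM in Ctrl libraries. It fell by nearly the same log2 amount (-0.30 ± 0.066, adjusted p = 0.00052). UCHL5, which sits on the proteasome through ADRM1 and on the INO80 remodeller through NFRKB, had 93.5, 95.0 and 92.4 CPM in shMTA1 libraries, against 88.8, 82.2 and 83.1 CPM in Ctrl libraries (0.15 ± 0.043, adjusted p = 0.0073), while neither ADRM1 (-0.02 ± 0.045) nor NFRKB (0.03 ± 0.066) passed. USP14, the other cysteine protease of the proteasome, was higher in each shMTA1 library but did not pass (0.09 ± 0.045, adjusted p = 0.10). PSMD14, the metalloprotease built into the proteasome lid and not among the 64 genes, rose to 66.9 ± 3.82 CPM in shMTA1, against 50.4 ± 1.47 CPM in Ctrl (0.41 ± 0.049, adjusted p = 6.3e-07). UCHL3, which frees ubiquitin and NEDD8 from small adducts, did not pass (-0.09 ± 0.051, adjusted p = 0.13). UCHL1, a neuronal paralog, was too scarce to test, with 10, 10 and 7 counts in shMTA1 libraries, against 3, 8 and 7 in Ctrl libraries.

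Enzymes of endosomes and receptor traffic included called changes in both directions, 3 up and 2 down of 9 tested, and 4 that did not pass. USP33, the paralog of USP20, had 12.6, 14.4 and 11.5 CPM in shMTA1 libraries, against 10.0, 9.68 and 10.9 CPM in Ctrl libraries. The groups did not overlap (0.34 ± 0.083, adjusted p = 0.0018). STAMBP, a metalloprotease that trims K63 chains on endosomes, had 33.1, 32.7 and 33.5 CPM in shMTA1 libraries, against 30.1, 30.3 and 29.2 CPM in Ctrl libraries (0.15 ± 0.049, adjusted p = 0.014). Its call ended without Ctrl replicate 3 (adjusted p = 0.063) and with DESeq2 (0.054). USP8, which acts at the same sorting step on receptors such as EGFR, had 9.42, 9.75 and 8.86 CPM in shMTA1 libraries, against 11.0, 11.1 and 10.0 CPM in Ctrl libraries (-0.19 ± 0.076, adjusted p = 0.037). That call ended without shMTA1 replicate 1 (adjusted p = 0.063) or 3 (0.12) and without Ctrl replicate 1 (0.092) or 2 (0.11). It also ended with library size only (0.18), without a filter (0.078), with DESeq2's Wald test (0.10) and on the FPKM scales (0.32 and 0.27), so that it was lost in 9 of 16 alternatives. Of the sorting subunits that bind these enzymes, 2 rose and STAM2 did not pass (0.02 ± 0.13, adjusted p = 0.90). HGS was at 41.0 ± 1.19 CPM in shMTA1 and 26.9 ± 0.926 CPM in Ctrl libraries (0.61 ± 0.051, adjusted p = 3.7e-09) and STAM changed by 0.40 ± 0.12 on the log2 scale (adjusted p = 0.0077). EGFR rose as well (1.04 ± 0.057, adjusted p = 6.5e-12). USP10, which pairs with the stress granule proteins G3BP1 and G3BP2, stood at 0.02 ± 0.11, while G3BP1 rose to 96.1 ± 4.63 CPM in shMTA1, against 68.2 ± 0.751 CPM in Ctrl (0.49 ± 0.045, adjusted p = 1.1e-08). USP32 (-0.11 ± 0.064), USP46 (-0.19 ± 0.17) and USP2 (-0.10 ± 0.21) did not pass, and USP6 had at most 1 count in any library.

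Of the enzymes of NF-kB, innate immune and cytokine signalling 7 of 9 tested did not pass. Over all tested members 40.4% passed, against 58.1% of all tested genes. OTUD3, an OTU-domain enzyme, had 6.20, 5.24 and 5.32 CPM in shMTA1 libraries, against 4.05, 4.37 and 3.77 CPM in Ctrl libraries. It was the only member of this group that rose (0.46 ± 0.11, adjusted p = 0.0013). CYLD, a tumour suppressor that removes K63-linked and linear chains in NF-kB signalling, had 8.83, 10.7 and 9.38 CPM in shMTA1 libraries, against 11.5, 10.6 and 11.98 CPM in Ctrl libraries. The groups overlapped, and the call (-0.23 ± 0.082, adjusted p = 0.020) ended without shMTA1 replicate 1 (adjusted p = 0.10), without Ctrl replicate 3 (0.087), with libraries scaled by size only (0.093) and on the FPKM scales (0.22 and 0.20). SPATA2, which links CYLD to the linear-chain ligase, rose (0.56 ± 0.13, adjusted p = 0.0012). TNFAIP3 (A20), another deubiquitinase of this pathway but outside the 64 genes, fell to 2.94 ± 0.415 CPM in shMTA1, against 6.94 ± 0.914 CPM in Ctrl (-1.24 ± 0.13, adjusted p = 5.3e-08). OTUD5, an inhibitor of interferon signalling, did not pass (-0.06 ± 0.041), nor did OTUD7B (-0.08 ± 0.049), OTUD1 (0.03 ± 0.080), OTUD4 (0.0004 ± 0.10), USP25 (0.13 ± 0.073), USP31 (-0.24 ± 0.105) or USP38 (-0.20 ± 0.15). OTUD7A had 0, 6 and 9 counts in shMTA1 libraries, against 7, 4 and 8 in Ctrl libraries, and was not tested.

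In growth control, USP4, which acts on the TGF-beta receptor TGFBR1, had 11.9, 13.3 and 13.9 CPM in shMTA1 libraries, against 8.74, 9.40 and 9.30 CPM in Ctrl libraries. All shMTA1 libraries were above all Ctrl libraries (0.51 ± 0.076, adjusted p = 9.1e-06), and TGFBR1 rose too (0.20 ± 0.051, adjusted p = 0.0027). USP9X, a large enzyme that protects MCL1, had 65.3, 65.9 and 69.5 CPM in shMTA1 libraries, against 59.6, 61.8 and 60.8 CPM in Ctrl libraries (0.14 ± 0.045, adjusted p = 0.012). Leaving out Ctrl replicate 1 took its adjusted p to 0.056. MCL1, an anti-apoptotic BCL2 relative, rose to 226 ± 11.8 CPM in shMTA1, against 154 ± 3.03 CPM in Ctrl (0.55 ± 0.043, adjusted p = 1.3e-09). USP15 (-0.03 ± 0.056) and USP34, which acts on axin (-0.04 ± 0.067), did not pass. Neither did the mitochondrial USP30 (-0.24 ± 0.19), the endoplasmic reticulum enzyme USP19 (0.14 ± 0.073) or USP35 (0.35 ± 0.17). The splicing factor USP39, which lacks a complete active site, stood at -0.07 ± 0.047 and USP53 at -0.13 ± 0.12, whereas SART3, a splicing factor that recruits deubiquitinases to the spliceosome, rose (0.41 ± 0.048, adjusted p = 3.1e-07). Of the remaining members USP43 had 7.45, 7.41 and 8.99 CPM in shMTA1 libraries, against 10.2, 9.07 and 10.6 CPM in Ctrl libraries. It passed as lower (-0.33 ± 0.090, adjusted p = 0.0042), but not on the FPKM scales (adjusted p = 0.065 and 0.067). USP40 (0.20 ± 0.094) and OTUB2 (-0.33 ± 0.20) did not pass, and USP41 and USP50 had at most 3 counts in any library.

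Among paralogs, USP5 and USP13 were called in opposite directions. Of 15 sets of paralogs with at least 2 tested members, the calls differed within 9. In the others of these 9 a called gene stood beside one that did not pass, which does not show that the paralogs differ. Over all tested members 24.6% were called higher and 15.8% lower, so differing calls are common in any set. The share for sets of unrelated genes was not computed. A ratio of counts within a library does not depend on how libraries are scaled. Of 19 such ratios formed, some of them sharing a gene, 13 (68.4%) were without overlap between the groups. Of all tested genes taken singly 62.7% did not overlap, but a ratio carries the changes of 2 genes. The share over ratios of unrelated genes was not computed. With 3 libraries against 3 the smallest p an exact permutation test can give is 0.10, so no ratio can pass 0.05, before any adjustment over the 19. The count of USP5 was 5.17, 5.24 and 5.47 times that of USP13 in shMTA1 libraries, against 3.36, 3.33 and 3.68 times in Ctrl libraries. This was the only set of the 15 in which a member rose and another fell. USP22 was counted 8.41, 9.54 and 9.26 times as often as USP27X in shMTA1 libraries, against 6.19, 6.90 and 6.22 times in Ctrl libraries. USP53 over USP54 was 1.02, 1.14 and 1.19 in shMTA1 libraries, against 1.84, 2.02 and 1.80 in Ctrl libraries. The read counts of this scarce pair were thus close to equal in shMTA1 libraries, though counts are not scaled for gene length. USP12 over USP46 was 6.17, 8.47 and 6.77 in shMTA1 libraries, against 8.89, 9.90 and 9.10 in Ctrl libraries. USP4 over USP15 was 0.616, 0.686 and 0.739 in shMTA1 libraries, against 0.435, 0.493 and 0.478 in Ctrl libraries. The third gene of that family, USP11, also rose relative to USP15, at 1.55, 1.76 and 1.83 in shMTA1 libraries, against 1.16, 1.55 and 1.36 in Ctrl libraries, where the lowest shMTA1 and the highest Ctrl ratio nearly touch. USP2 over USP21 (0.104 ± 0.0203 in shMTA1, 0.171 ± 0.0293 in Ctrl) and OTUB1 over OTUB2 (25.4 ± 2.05 and 17.8 ± 2.22) did not overlap either, whereas USP36 over USP42 (6.49 ± 1.14 and 8.55 ± 0.990) and USP31 over USP43 (0.628 ± 0.105 and 0.587 ± 0.0876) did.

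**Figure D4:**
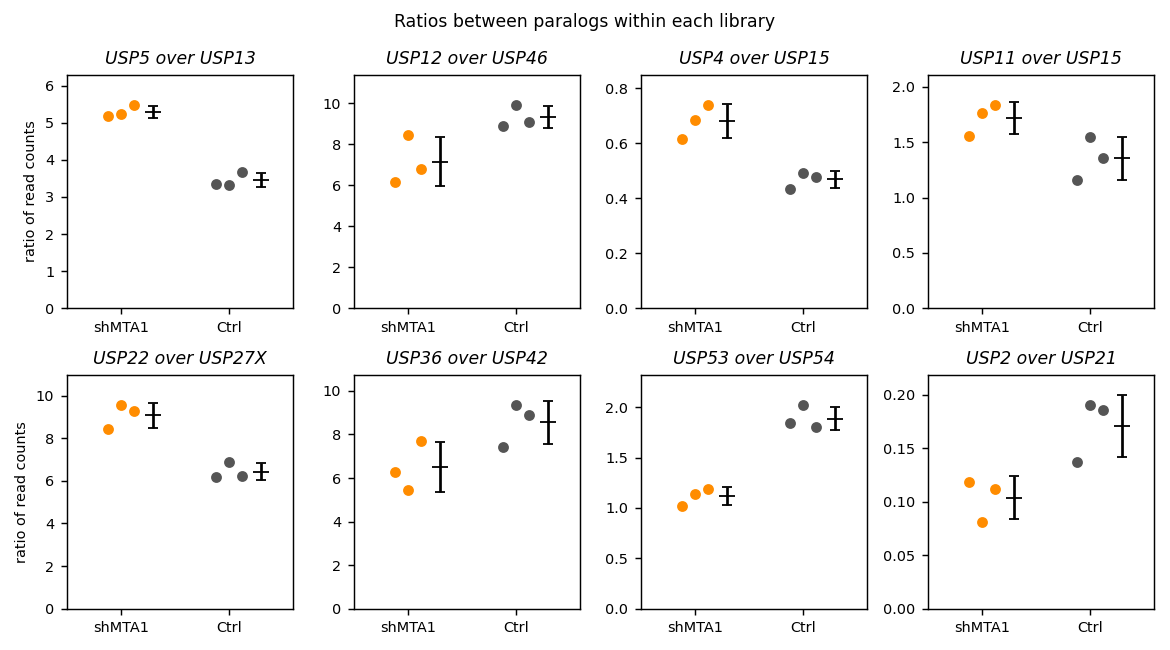
Ratio of read counts between paralogs (y axes from 0, one scale per pair) within each shMTA1 and each Ctrl library; black marks are the mean ± SD over 3 libraries. USP5 over USP13 averages 5.29 in shMTA1 and 3.46 in Ctrl libraries, and of the 8 ratios drawn only USP36 over USP42 overlaps between the groups.

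The enzymes that share the cofactor WDR48 were lower in sum. USP1, USP12 and USP46 together had 49.3, 49.4 and 48.1 CPM in shMTA1 libraries, against 63.8, 62.2 and 64.6 CPM in Ctrl libraries, or 77.0% of the Ctrl level. USP46 added little, with 1.94, 1.48 and 1.93 CPM in shMTA1 libraries, against 2.07, 1.89 and 2.13 CPM in Ctrl libraries, and did not pass. The second cofactor WDR20 fell (-0.30 ± 0.078, adjusted p = 0.0025), while WDR48 itself did not pass (0.14 ± 0.086, adjusted p = 0.19).

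Per gene length the most abundant member in both groups was OTUD5, at 21.3, 21.6 and 21.9 FPKM in shMTA1 libraries, against 21.6, 21.5 and 21.04 FPKM in Ctrl libraries. UCHL3 had 14.7, 14.4 and 14.9 FPKM in shMTA1 libraries, against 15.1, 14.4 and 15.2 FPKM in Ctrl libraries. On the FPKM scale the groups overlapped for both genes. In CPM each shMTA1 library lay below every Ctrl library for both, though neither gene passed the test. In Ctrl OTUD5 was followed by UCHL3 (14.9 ± 0.457 FPKM), USP39 (12.8 ± 0.456 FPKM), USP5 (12.1 ± 0.562 FPKM), UCHL5 (11.0 ± 0.404 FPKM), USP48 (9.91 ± 0.321 FPKM) and USP1 (9.51 ± 0.142 FPKM). The Ctrl values of USP39 and USP5 overlapped, as did those of USP48 and USP1, while the other neighbours in this order did not. In shMTA1 libraries USP5 stood at 15.8 ± 0.560 FPKM and UCHL3 at 14.7 ± 0.259 FPKM, so that USP5 was second there. USP1 had 8.09 ± 0.266 FPKM in shMTA1 and USP7 8.42 ± 0.287 FPKM, values that overlapped, whereas in Ctrl USP7 had 8.30 ± 0.285 FPKM and stood below USP1 without overlap. Of 63 members with FPKM values, 5 had 10 or more in Ctrl, 28 had 1 to 10 and 30 had less than 1.

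Genes that start head to head with a member did not always follow it. In the RefSeq annotation 16 members have a start on the opposite strand within 1000 bases upstream, and for 8 of them the member and the neighbour were tested. UCHL3 starts 63 bases from COMMD6. COMMD6 fell to 19.6 ± 0.911 CPM in shMTA1, against 30.6 ± 1.28 CPM in Ctrl (-0.65 ± 0.056, adjusted p = 5.8e-09), where UCHL3 did not pass. BRCC3 starts 372 bases from CMC4, which fell (-0.72 ± 0.16, adjusted p = 0.00076) while BRCC3 stood at 0.06 ± 0.066. UCHL5 and RO60 (0.32 ± 0.090, adjusted p = 0.0051) rose together, as did USP5 and CDCA3 (0.26 ± 0.044, adjusted p = 5.1e-05) and USP20 and C9orf78 (0.11 ± 0.038, adjusted p = 0.015), the rise of C9orf78 being much the smaller. In the other 3 pairs, of USP35 with KCTD21, USP39 with TMEM150A and USP46 with USP46-DT, neither gene passed.

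Around the deubiquitinases, more E2 enzymes fell than rose, and of 7 ubiquitin and E1 genes 3 fell, 2 rose and 2 did not pass. Of 34 E2 enzymes 19 fell, 4 rose and 11 did not pass, with a median log2 fold change of -0.20 beside 0.002 over all tested genes. Over all tested genes 28.6% were called lower and 29.5% higher. The E2 enzymes called lower numbered 14 with library size only and 13 on each of the FPKM scales. UBE2S, which extends chains for the anaphase-promoting complex, had 92.4, 92.2 and 92.2 CPM in shMTA1 libraries, against 124, 126 and 126 CPM in Ctrl libraries (-0.44 ± 0.039, adjusted p = 7.6e-09). UBE2A, a RAD6 homolog that marks histone H2B and PCNA, fell to 43.6 ± 3.26 CPM in shMTA1, against 59.2 ± 1.23 CPM in Ctrl (-0.44 ± 0.052, adjusted p = 4.9e-07), and UBE2V2, a cofactor for K63 chains, fell as well (-0.40 ± 0.048, adjusted p = 4.8e-07). UBE2O, a large hybrid of E2 and E3, rose (0.29 ± 0.055, adjusted p = 0.00016). Among the ubiquitin genes UBB had 1185, 1349 and 1367 CPM in shMTA1 libraries, against 1952, 2076 and 1980 CPM in Ctrl libraries (-0.62 ± 0.050, adjusted p = 2.0e-09). RPS27A, which encodes ubiquitin fused to a ribosomal protein, fell too (-0.39 ± 0.057, adjusted p = 6.3e-06), and the E1 enzyme UBA1 rose (0.22 ± 0.047, adjusted p = 0.00045). UBB and RPS27A have processed pseudogenes that can share reads with them.

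Of 19 tested genes listed as deubiquitinases or their relatives outside the 64, 6 rose, 4 fell and 9 did not pass (median 0.14). Among the 6 that rose, USPL1 is known as a SUMO protease, COPS5 as a NEDD8 protease and PAN2 as a deadenylase subunit, which leaves STAMBPL1, PSMD14 and ZUP1 as deubiquitinases. STAMBPL1, the paralog of STAMBP, had 25.5, 25.7 and 24.5 CPM in shMTA1 libraries, against 11.1, 11.9 and 11.8 CPM in Ctrl libraries. Its log2 fold change (1.12 ± 0.059, adjusted p = 3.9e-12) was a larger value than that of any of the 57 tested members. USPL1 changed by 0.75 ± 0.13 on the log2 scale (adjusted p = 3.6e-05). Of 28 partners and cofactors 11 rose and 6 fell (median 0.10), and of 20 known substrates 8 rose and 7 fell (median -0.03). These medians stand beside 0.002 over all tested genes, with 29.5% of all genes called higher and 28.6% lower.

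**Figure D5:**
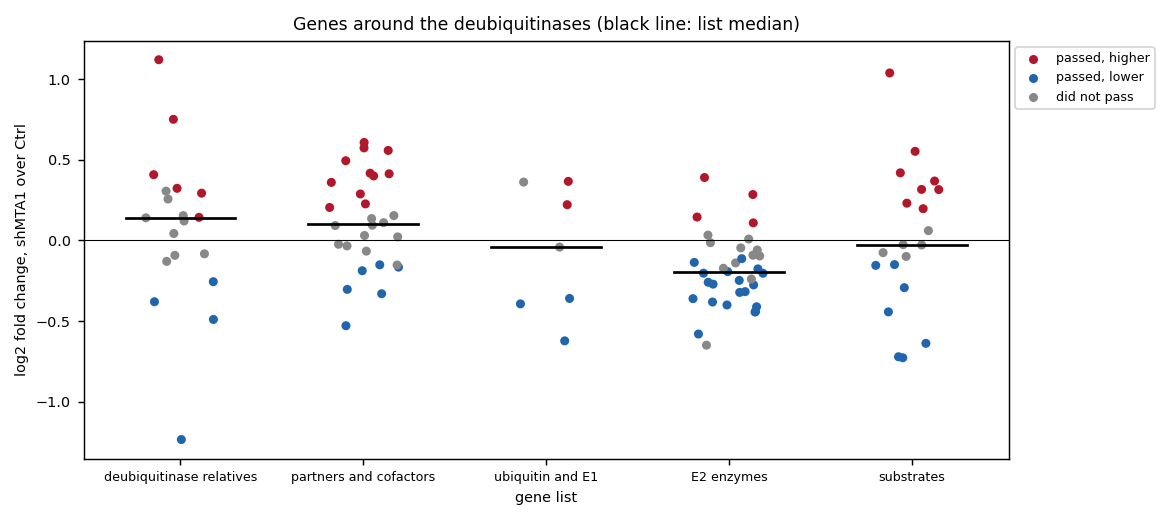
Log2 fold change of shMTA1 over Ctrl (y axis) of each tested gene in 5 lists around the deubiquitinases (x axis, points spread sideways for sight only); the black line is the list median and the colour the call. The E2 enzymes have the lowest median, -0.20, with 19 of 34 lower, and the 28 partners have 11 higher and 6 lower.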

How the data were processed

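RNA-seq of PC-3 cells gave 6 libraries, 3 of the group named after MTA1 (shMTA1) and 3 Ctrl. Total RNA libraries were made with a stranded SMARTer kit and sequenced as paired reads, per the labels. The authors deposited whole-number read counts per gene, not normalized, for 30651 genes, and FPKM values, scaled by the authors for length and depth, for 29969 of them. Which aligner, counting tool, strand setting, genome build and annotation were used is not given in the sources used here. DESeq2 is named without a role, per the submitters' processing notes. The names of the shMTA1 columns match the MTA1 samples. The NC columns were assigned to Ctrl by elimination.

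The gene counts were fitted with edgeR 4.0.16 (R 4.3.3). The default filterByExpr kept 15423 genes with at least 99.9% of the counts of each library, which were scaled with TMM and compared between the groups by the quasi-likelihood F test (2-sided, no covariate). Adjusted p is by Benjamini-Hochberg across the whole tested table, at 0.05. The biological coefficient of variation was 4.45%. Squared differences were 3.22 to 9.01 times counting noise between replicates. Alternatives were DESeq2 1.42.0, limma 3.58.1 (voom, and log2(FPKM + 0.1) and log2(FPKM + 1)), other scalings and filters, a replicate block and leaving out each library. Outside those alternatives FPKM served only to compare levels between genes.

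Members and lists were chosen with earlier results of these data known. Any member may be named. Values in every library are given for the 10 highest and 10 lowest fold changes among called members with a mean of 2 CPM or more (9 were lower), as ratios or levels for paralog sets whose calls differ and for the 3 highest in FPKM. From each partner list up to 3 genes of the commoner direction and 1 of the other were taken by smallest p. ASXL1, ASXL2, ATXN7L3, STAM, SPATA2, TGFBR1, STAM2, COPS5, PAN2, ZUP1, WDR20, WDR48, ADRM1, NFRKB, PCNA and the head-to-head neighbours were named after their values were seen. Some genes of the lists are not reported here.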

Additional observations from a re-analysis of the deposited data

How the results depend on the processing

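All 23 called members kept their direction in the 16 alternatives, and 17 kept the call in each. The 6 that lost it in at least 1 were USP8, CYLD, USP36, USP43, STAMBP and USP9X, and 11 other members passed in at least 1. Members called higher numbered 22 with library size only, against 14 in the reported fit. Members called lower numbered 5 on log2(FPKM + 0.1) and 5 on log2(FPKM + 1), against 9. Library size only moved the median of all genes by 0.068 and gave 60.1% of all calls as higher, against 50.8%, and these settings use other library totals by construction. Leaving out each library gave 14 to 15 members higher, 6 to 10 lower, with 6 lower without shMTA1 replicate 1, 8145 to 8586 genes called (8954 in the reported fit) and 65 to 68 genes of the pathway lists (70). The sign turned for members that had not passed. With library size only, log2(FPKM + 0.1) and log2(FPKM + 1) in turn, the values were 0.013, 0.012 and 0.012 for OTUD5, 0.022, 0.020 and 0.019 for USP7, 0.030, 0.031 and 0.017 for USP34, 0.040, 0.034 and 0.018 for USP15 and 0.051, 0.051 and 0.022 for USP37. With DESeq2 size factors, upper-quartile scaling, 1 CPM in 3 libraries and the DESeq2 Wald test in turn, they were -0.0057, -0.0027, -0.0035 and -0.0050 for OTUD4 and -0.0032, -0.00031, -0.0010 and -0.0031 for USP47. Leaving out libraries took OTUD1 from -0.032 to 0.094, OTUD4 from -0.083 to 0.069, USP10 from -0.043 to 0.095, USP2 from -0.22 to 0.086, USP3 from -0.028 to 0.084, USP34 from -0.11 to 0.023, USP37 from -0.074 to 0.035, USP47 from -0.024 to 0.011 and USP49 from -0.26 to 0.015. Correlations of deviations were 0.067, -0.021 and 0.019 for libraries sharing replicate numbers 1, 2 and 3. Between libraries with different numbers they ran from -0.079 to 0.062. These values neither show nor exclude a pairing by replicate number. With the replicate block 15 members were higher and 11 lower, adding USP31, USP42 and USP22, 9139 genes passed in all and 73 in the pathway lists. Partners called lower numbered 3 instead of 6 with library size only and on both FPKM scales, substrates called lower 4 instead of 7 on both FPKM scales, and E2 enzymes called higher 2 instead of 4 with the DESeq2 Wald test and without shMTA1 replicate 1, Ctrl replicate 2 or Ctrl replicate 3. The cause of these changes was not tested. Depth limits scarce members such as USP54, USP46, OTUB2, USP2 and USP30, whose SEs ran from 0.15 to 0.21.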
